A study of Homo sapiens with 16 samples.

Results

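Planar cultures of stem-cell-derived islets differed in how much endocrine RNA they held, also between the 2 libraries of a single treatment. For each of 8 treatments the library with the higher CHGA level, in reads per 1000000 reads of its library (CPM), was taken as endocrine-rich and the other as endocrine-poor, which gave 8 rich and 8 poor libraries, 16 of the 16 in the series. The classes were thus chosen by CHGA, whose values are given as a description with no test. The comparison asked which other genes ran with CHGA between the libraries of 1 treatment. Genes made only by the cells that make CHGA can move with it through the choice of classes alone.

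The cultures came from HUES08, an established human embryonic stem cell line of wild-type genotype, and every library had batch label 1. Treatment began with stage 5 and lasted until day 7 of stage 6, with colchicine at 10 nM, epirizole at 2.5 uM, Ly-294002 at 120 nM, moxifloxacin at 1.1 uM, rottlerin at 1.23 uM, vardenafil at 125 nM, rimonabant at 125 nM or the solvent DMSO, and 2 libraries were made of each. Whole cultures were lysed, so each library mixes every cell type present, and fewer cells of a type and less RNA per cell cannot be told apart. Whether the libraries of a treatment are separate differentiations is not in the labels, and the p-values rest on how far the sequenced libraries scatter, and part of that scatter may be technical.

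Endocrine cells of the islet package hormones in dense-core granules, whose matrix is built from granins such as chromogranin A, the product of CHGA. In the embryo they arise from pancreatic progenitors that pass through a short NEUROG3-positive stage and then switch on NEUROD1, INSM1, NKX2-2 and PAX6, transcription factors shared by most hormone-producing cells. Stem cell differentiation also yields serotonin-making enterochromaffin-like cells, marked by FEV and TPH1, and non-endocrine cells of several kinds.

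CHGA ran from 102 CPM (Ly-294002 library 2) through a median of 187 CPM to 315 CPM (moxifloxacin library 2) in the rich libraries, and from 31.6 CPM (rottlerin library 2) through 44.6 CPM to 88.9 CPM (DMSO library 2) in the poor libraries. The lowest rich library and the highest poor library thus lay at 102 and 88.9 CPM. The rich library held 1.89 times the CHGA of the poor one in DMSO, 2.59 times in rimonabant, 2.91 times in Ly-294002, 4.27 times in colchicine, 4.37 times in vardenafil, 6.02 times in moxifloxacin, 6.37 times in epirizole and 7.20 times in rottlerin. The rich library was number 1 in 4 treatments (DMSO, colchicine, epirizole and rottlerin) and number 2 in the other 4. Ordering each treatment by NEUROD1, by INSM1 or by CHGB in place of CHGA put the same library first in 8 of 8 treatments each time.

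Of the genes called higher, 4 carry, near their start, the letters of the RE1 element (also called NRSE), a sequence through which the repressor REST keeps neuronal and endocrine genes off in other cells. The windows are shown because these genes, of secretion, vesicle priming and ion channels, were all higher in the rich library of 8 of 8 treatments. Each line gives a window of 30 bases in the direction of the element, with its left block TTCAGCACC and right block GGACAG in capitals, from the RefSeq promoters of GRCh38.p14, with positions counted from the RefSeq start of the gene.
SCG3: aacTTCAGCACCcacagggcGGACAGcgct
UNC13A: tggTTCAGCACCgggggcgcGGACAGcgcc
UNC80: gctTTCAGCACCtcccactgtGGACAGcgg
KCNH6: tctTTCAGCACCaaggcgtGGACAGctccc
The SCG3 window lies at chr15:51681508-51681537 on the gene's strand, 6 to 35 bases into the gene, and the KCNH6 window at chr17:63523122-63523151 on the gene's strand, 236 to 207 bases before its start. The UNC13A window (chr19:17688337-17688366, spanning the start) and the UNC80 window (chr2:209771767-209771796, 65 to 36 bases before the start) run on the strand opposite to the gene. Levels of genes other than CHGA are CPM after TMM scaling, which corrects for library composition. UNC80, part of a sodium leak channel complex, ran from 3.62 through a median of 9.09 to 14.4 CPM in rich libraries and from 1.77 through 2.53 to 2.61 CPM in poor ones (log2 fold change 1.80 ± 0.18 SE, edgeR adjusted p = 0.000264), and KCNH6, a potassium channel, changed by 1.97 ± 0.32 (adjusted p = 0.00516). Neither overlapped between the classes.

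Among genes called higher in rich with a log2 fold change above 1, 92 of 140 had a promoter of 300 bases in the table, and both blocks stood in order on 1 strand, 0 to 10 bases apart, in 4 of the 92 (4.35%). The same was found in 8 of the 13695 promoters of tested genes (0.0584%), and in 0 of 238 promoters of genes called lower. The other 4 carriers were SYN1, SLC39A3, GRM2 and CKMT1A, with log2 fold changes of 0.11, -0.08, 0.03 and 0.41, and none of these passed the test. Each block was also counted whether or not the other stood near it, on either strand. The left block was in 4.35% of the promoters of rising genes, which are the same 4 promoters, and in 0.299% of those tested. The right block was in 31.5% and 20.5%. The cAMP-response letters TGACGTCA were in 6 of the 92 promoters of rising genes, those of SST, PCSK1 and PAX6 among them, and in 411 of the 13695 tested. The E-box letters CAGATG were in 14.1% and 10.4%, and TATAAA, which SST and GCG carry, in 13.0% and 7.04%. These matches are descriptions of letters, found after the values were seen, and say nothing of binding.

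One of the rising transcripts, MIR7-3HG, is the host gene of a copy of miR-7, a microRNA abundant in islet endocrine cells, whose mature sequence lies inside it at chr19:4770700-4770723 on the plus strand (RefSeq, GRCh38.p14). It is printed with the seed, bases 2 to 8, in capitals.
hsa-miR-7-5p: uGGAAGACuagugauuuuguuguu
The mature microRNA was not measured by these libraries, and its hairpin had at most 1 read in any of them. The host transcript ran from 0.825 through a median of 2.45 to 3.23 CPM in rich libraries and from 0.238 through 0.458 to 0.723 CPM in poor libraries (log2 fold change 2.13 ± 0.34 SE, edgeR adjusted p = 0.00483). No rich library overlapped a poor one.

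Library totals were 23294377 to 29545007 reads in rich libraries and 25129447 to 30701868 reads in poor libraries. In 5 measures of library quality, compared by an exact two-sided sign-flip test over the 8 pairs (smallest possible p 0.00781), the smallest p was 0.0547. It belonged to the GC slope, the mean log2 deviation of the 20% most GC-rich genes minus that of the 20% least GC-rich ones, which was 0.07 ± 0.29 in rich and -0.07 ± 0.15 in poor libraries (SD, n = 8 each), higher in rich in 7 of 8 pairs (adjusted p = 0.273, exact test). Without the vardenafil pair its exact p was 0.0156, and without the moxifloxacin pair the exact p of the library total was 0.0469, against 0.109 with all pairs. The rich rimonabant library 2 had a GC slope of 0.682, the next rich library being rottlerin library 1 at 0.185. Without the rimonabant pair the rich minus poor GC slope was 0.0833 (exact p = 0.109), against 0.142 with all pairs. The gene counts with GC content taken out are given with the main counts. Mitochondrially encoded reads were 2.15% ± 0.406 in rich and 2.31% ± 0.271 in poor libraries (exact p = 0.258). As a check of the islet label, insulin was detected in every library, whereas IAPP had at most 1 read, MAFA 2 to 11 reads and NEUROG3 at most 4 reads, under the level needed for testing. POU5F1 and NANOG of pluripotent cells had at most 6 and 11 reads.

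In the main fit more genes were called higher than lower in the rich libraries, endocrine factors and granule genes among the former. Among abundant genes more were called lower than higher, with small changes. With the treatment as a block, edgeR's quasi-likelihood test called 750 of 24514 genes at an adjusted p of 0.05 (3.06%), 444 higher in rich (1.81%) and 306 lower (1.25%). At an unadjusted p under 0.05 there were 4227. The direction was the same in 8 of 8 pairs for 315 of the genes called higher and 183 of those called lower. A paired test favours genes whose pairs agree, so these counts are a description. The same count over all tested genes is not given here. Among called genes rises were larger than falls: the median log2 fold change was 0.62 among genes called higher and -0.28 among those called lower, beside 0.00 over all tested genes, and 140 genes rose by more than 1 against 12 that fell by more than 1. The falls lay among more abundant genes, with a median level of 47.4 CPM, against 7.52 CPM for the rises and 5.59 CPM for all tested genes. Smaller changes can pass the test at higher levels, so rises and falls were not compared at equal levels. The part of level in their difference in size was not tested. Of 2445 genes at 100 CPM or more, 23 were called higher (0.941%) and 98 lower (4.01%).

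**Figure D1:**
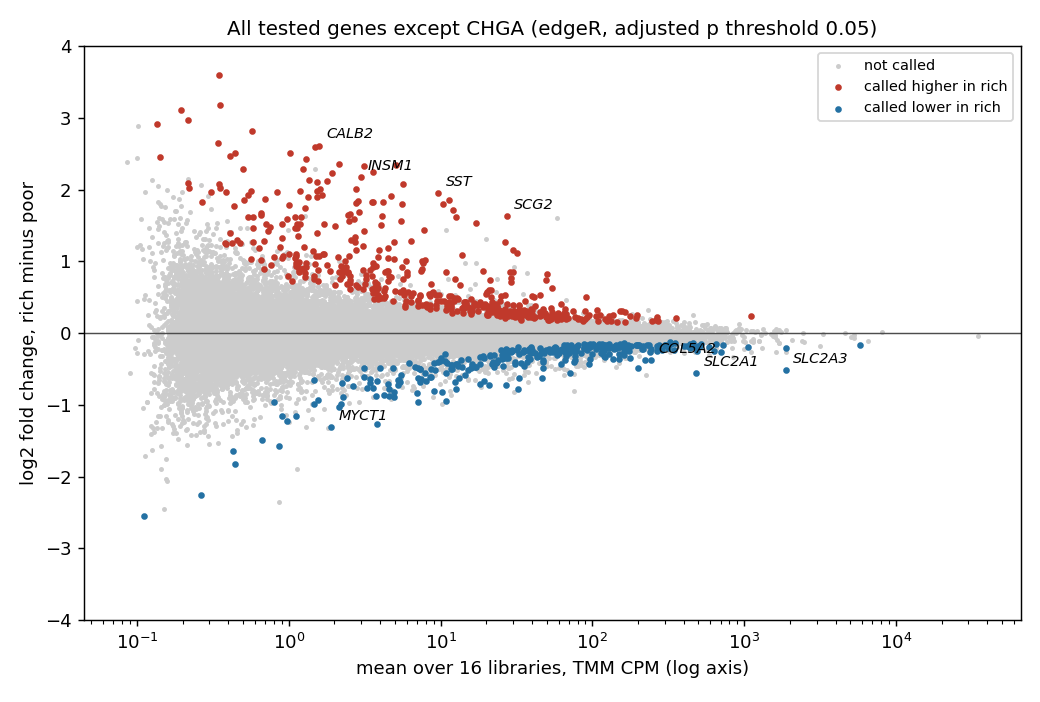
Each point is a tested gene other than CHGA, with its mean level over the 16 libraries (TMM-normalised CPM, log axis) and its log2 fold change, rich minus poor. Red points are the 444 genes called higher and blue points the 306 called lower; the rises reach above 2 among genes of a few CPM, and the falls stay small among abundant genes such as SLC2A3.

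Genes called higher had a median GC content of 57.1%, against 45.3% for those called lower and 48.9% for all tested genes. With an offset that takes GC content out of each library, 264 genes were called higher and 409 lower, so that 39.2% of calls were higher in rich, against 59.2% without it. All 750 calls kept their direction under that offset, and 519 remained called. The count fell to 245 without the epirizole pair, 272 without the moxifloxacin pair and 374 without the Ly-294002 pair.

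NEUROD1 (chr2:181673088-181680876, GRCh38), a basic helix-loop-helix factor of endocrine differentiation, ran from 3.38 through a median of 6.82 to 10.7 CPM in the rich libraries and from 1.20 through 1.87 to 2.76 CPM in the poor libraries (log2 fold change 1.83 ± 0.19 SE, edgeR adjusted p = 0.000264). INSM1 (chr20:20368121-20370949), a zinc-finger factor needed for endocrine cells to form, ran from 1.85 through 4.94 to 7.89 CPM in rich libraries and from 0.613 through 1.07 to 1.52 CPM in poor libraries (2.18 ± 0.21, adjusted p = 0.000153). For both genes every rich library lay above every poor one. That was so for 63 genes in all (0.257% of those tested), and 5 genes (0.0204%) had every rich library below every poor one.

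PAX6, a paired-box factor of hormone gene expression, ran from 5.33 through 9.27 to 15.3 CPM in rich libraries and from 0.885 through 1.88 to 4.83 CPM in poor ones (2.08 ± 0.28, adjusted p = 0.00529), again without overlap. NKX2-2, a homeobox factor of several islet cell types, ran from 1.41 through 3.12 to 6.70 CPM in rich and from 0.136 through 0.739 to 0.919 CPM in poor libraries (2.23 ± 0.33, adjusted p = 0.00482), also without overlap. NKX6-1, a homeobox factor of beta cells and their progenitors, spanned 2.08 to 8.93 CPM (median 5.75) in rich and 0.359 to 3.61 CPM (median 0.988) in poor libraries (2.25 ± 0.37, adjusted p = 0.0147). The poor DMSO library, at 3.61 CPM, was the poor library that reached into the rich range. ST18 and MYT1, zinc-finger factors of endocrine cells, were each higher in 8 of 8 pairs, with log2 fold changes of 2.12 and 1.39. PAX4, a factor of beta and delta cells in the mouse, was higher in 8 of 8 pairs too (1.98 ± 0.29, adjusted p = 0.00215).

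In the list of 25 endocrine transcription factors 21 could be tested. Of these 9 were called higher and 0 lower, with a median log2 fold change of 0.54. Of all tested genes 1.81% were called higher and 1.25% lower, shares that serve for each list below. Over the 20 alternative settings 9 to 11 were called higher and 0 to 2 lower, the 2 without a filter on low counts. Setting the classes by NEUROD1, INSM1 or CHGB is 3 of these 20 and gives the same fit, since the order was the same in 8 of 8 treatments. The 12 others did not pass the test. RFX6, which acts upstream in islet development, had median levels of 86.8 CPM in rich and 96.1 CPM in poor libraries (-0.18 ± 0.13, adjusted p = 0.548), with the classes overlapping. PROX1 (-0.01 ± 0.17) and RFX3 (-0.01 ± 0.04) were likewise not called, nor was ISL1 (0.54 ± 0.18, adjusted p = 0.152, higher in 7 of 8 pairs). RFX6, PROX1 and RFX3 are known in other epithelia as well as in endocrine cells.

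FEV, a factor of serotonin-making and progenitor cells, ran from 0.629 through 2.42 to 4.06 CPM in rich libraries and from 0.00 through 0.518 to 1.15 CPM in poor ones. Its log2 fold change of 2.29 ± 0.62 did not pass over all genes (edgeR adjusted p = 0.0985). The Ly-294002 pair ran the other way, at -0.17, and the rottlerin pair was the widest, at 5.59.

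**Figure D2:**
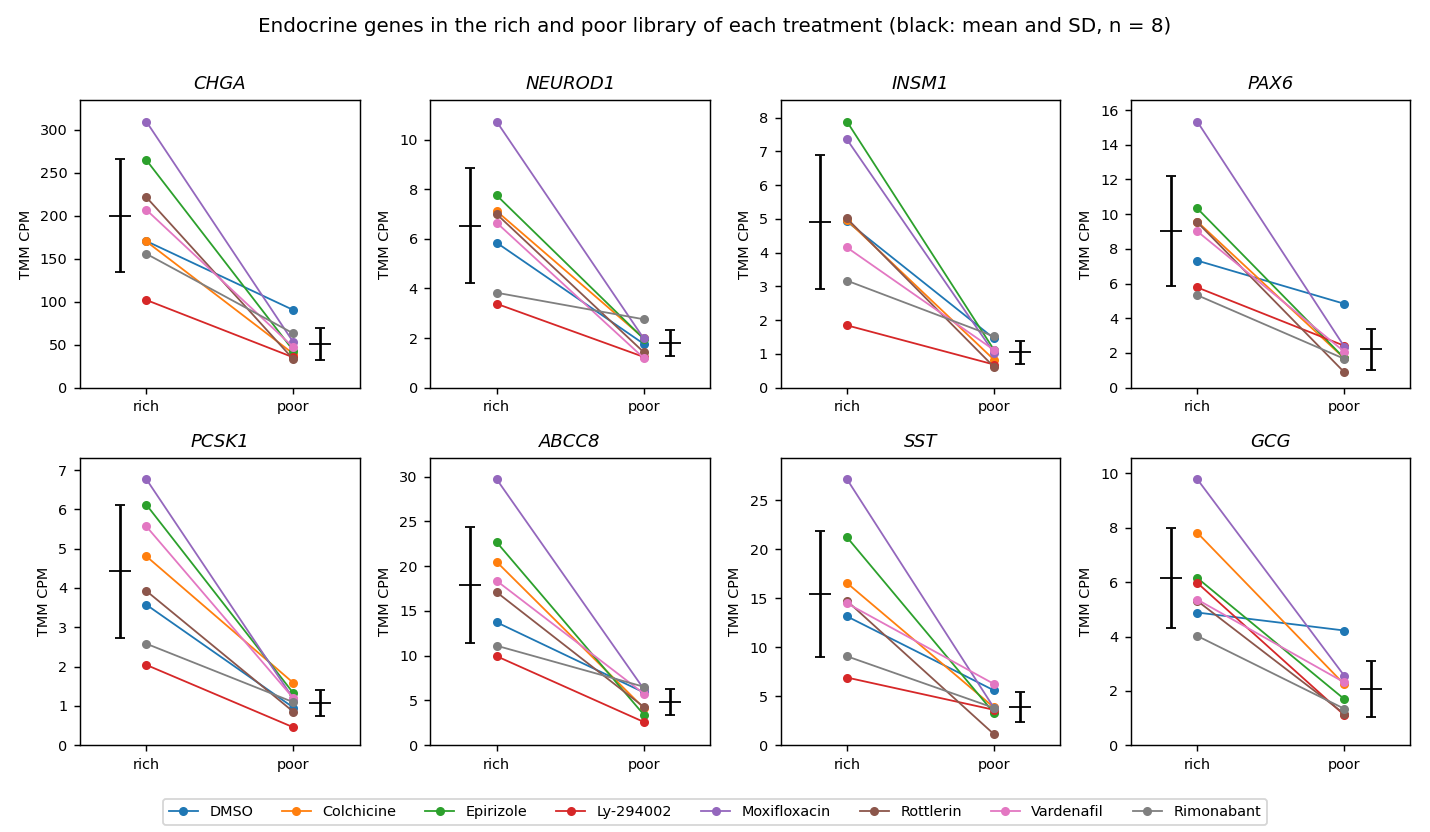
TMM-normalised CPM of 8 endocrine genes, one panel each, with the rich library of each treatment on the left joined to its poor library on the right; black marks are the mean and SD of 8 libraries. Every line falls towards the poor library, and CHGA, which chose the classes, is shown as a description.

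Most tested granule genes rose, a convertase that cuts prohormones among them. PCSK1 (chr5:96390415-96434143), the prohormone convertase that starts the processing of proinsulin, had the smallest p of all genes: it ran from 2.04 through 4.37 to 6.77 CPM in rich libraries and from 0.456 through 1.14 to 1.58 CPM in poor ones (2.00 ± 0.16, edgeR adjusted p = 1.75e-05). No library overlapped. PTPRN2, a granule membrane protein and autoantigen of autoimmune diabetes, ran from 5.11 through 8.23 to 11.7 CPM in rich and from 2.27 through 2.86 to 3.24 CPM in poor libraries (1.56 ± 0.12, adjusted p = 1.75e-05), and its relative PTPRN changed by 1.91 ± 0.21.

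The granins CHGB (1.82 ± 0.17), SCG2 (1.62 ± 0.19) and SCG3 (1.81 ± 0.19) were each higher in 8 of 8 pairs. SCG2 was at 19.8 to 59.3 CPM (median 44.1) in rich and 7.79 to 18.1 CPM (median 13.1) in poor libraries, without overlap. Of 14 tested members of the granule list 8 were called higher, beside 1.81% of all tested genes, and 0 lower (list median 0.99). The convertase PCSK2 (-0.20 ± 0.22, adjusted p = 0.719), the amidating enzyme PAM (-0.08 ± 0.07) and the calcium sensor SCGN (-0.15 ± 0.09) had values slightly below 0 and were not called.

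Islet hormones were low in every library, and 5 of them rose in the rich ones. SST, somatostatin of delta cells, ran from 6.92 through 14.6 to 27.2 CPM in rich and from 1.12 through 3.81 to 6.26 CPM in poor libraries (1.95 ± 0.32, adjusted p = 0.0197). GCG, glucagon of alpha cells, ran from 4.02 through 5.67 to 9.79 CPM in rich and from 1.11 through 1.97 to 4.22 CPM in poor libraries (1.63 ± 0.20, adjusted p = 0.00100), the highest poor value being the DMSO library. INS, insulin of beta cells, ran from 1.83 through 3.64 to 6.25 CPM in rich and from 0.652 through 1.02 to 2.35 CPM in poor libraries (1.64 ± 0.21, adjusted p = 0.000644).
SST did not overlap between the classes, whereas GCG and INS did. PYY (1.89 ± 0.38) and ghrelin, GHRL (0.80 ± 0.20), were also called. This made 5 of 7 tested hormones (list median 1.64), beside 1.81% of all tested genes called higher. That count was 3 without the epirizole pair and 2 without the moxifloxacin pair, and SST lost its call in each of those fits. The summed level of the 7 hormones was 18.2 to 49.4 CPM in rich libraries and 4.53 to 12.9 CPM in poor libraries. INS, GCG and SST were each higher in rich in 8 of 8 pairs, and which cells made them was not tested.

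Ion channels of excitable endocrine cells included 8 of 19 tested members called higher, beside 1.81% of all tested genes, and 0 lower (list median 0.16). Without the filter on low counts 3 were called lower. ABCC8, the sulfonylurea receptor of the beta cell potassium channel, ran from 9.94 through 17.7 to 29.7 CPM in rich and from 2.61 through 5.03 to 6.54 CPM in poor libraries (1.85 ± 0.20, adjusted p = 0.00121). No library overlapped, and KCNJ11, which forms the pore of the same channel, changed by 1.05 ± 0.16. KCNK16, an islet potassium channel (1.84 ± 0.24), CACNA1A, a voltage-gated calcium channel (1.62 ± 0.18), and GRIA2, a glutamate receptor subunit (1.51 ± 0.22), were higher in 8 of 8 pairs. CACNA1C (0.04), CACNA1D (0.07) and SCN9A (0.09) were not called.

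Of the 18 genes of the exocytosis list 5 were called higher, beside 1.81% of all tested genes (list median 0.26). They were UNC13A (1.83 ± 0.29), the vesicle-priming factor shown above, SYP (1.59 ± 0.23), CPLX2 (1.32 ± 0.27), CADPS (0.85 ± 0.13) and STX1A (0.35 ± 0.07). Without the epirizole or the moxifloxacin pair 3 were called. SNAP25 (0.14 ± 0.14) and VAMP2 (-0.01 ± 0.05), which form the core fusion complex, were not called.

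In the enteroendocrine list 3 of 14 tested members were called higher, beside 1.81% of all tested genes (list median 0.38). Without the moxifloxacin pair 1 was called higher, and without the DMSO pair 1 was called lower. NTS, neurotensin of gut endocrine cells, ran from 18.8 through 47.4 to 57.2 CPM in rich and from 9.16 through 19.7 to 27.1 CPM in poor libraries (1.16 ± 0.18, adjusted p = 0.0161), and it was not called without the moxifloxacin pair. DDC, which makes serotonin and dopamine from their precursors, ran from 10.5 through 15.3 to 21.0 CPM in rich and from 7.59 through 8.62 to 13.3 CPM in poor libraries (0.75 ± 0.11, adjusted p = 0.00138). GALR1, a galanin receptor, was under the floor of 3 reads in every poor library (adjusted p = 0.0406). It was called in 10 of the 18 alternative settings that tested it, and 3 of these settings repeat the main fit. TPH1, which makes serotonin's precursor, changed by 0.49 ± 0.16 and was not called (adjusted p = 0.125, higher in 6 of 8 pairs).

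CALB2, calretinin, a calcium buffer, ran from 0.786 through 2.85 to 4.10 CPM in rich and from 0.238 through 0.404 to 0.652 CPM in poor libraries (2.61 ± 0.25, adjusted p = 7.78e-05), without overlap. TNR, the extracellular matrix protein tenascin-R, ran from 3.85 through 7.96 to 14.1 CPM in rich and from 0.579 through 1.41 to 4.07 CPM in poor libraries (2.34 ± 0.31, adjusted p = 0.00483).
TNR overlapped between the classes. NKX6-3, a gut homeobox factor (2.60 ± 0.40), CRYBA2, a crystallin also found in islet cells (2.51 ± 0.45), DMBT1, a secreted scavenger receptor of epithelia (2.33 ± 0.37), and CNGA3, a cyclic-nucleotide-gated channel (2.10 ± 0.24), were also called higher. CALB2, TNR and these genes were among the 15 largest rises, taken only from genes with the same direction in 8 of 8 pairs. Among the 5 genes whose log2 levels followed CHGA most closely over the 16 libraries, after the treatment mean was taken off, were SCG3 (r = 0.993), CACNA1A, PAX6 and TNR (r = 0.989). In that measure the 2 libraries of a treatment mirror each other, so the points amount to 8 pairs that share their libraries with CHGA.

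Of 17 tested neuronal and neural crest genes 4 were called higher (median 0.33), 2 without the epirizole pair. DCX (0.71 ± 0.12), ELAVL3 (1.10 ± 0.24) and ERBB3 (0.22 ± 0.04) were higher in 8 of 8 pairs. The glial and crest markers SOX10, S100B and FOXD3 had at most 6, 2 and 0 reads in any library, and TUBB3 (-0.01) was not called. The summed level of the tested members was 419 to 507 CPM in rich (median 485) and 390 to 447 CPM in poor libraries (median 413). Most of that sum was ERBB3, with medians of 294 CPM in rich and 243 CPM in poor libraries.

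**Figure D3:**
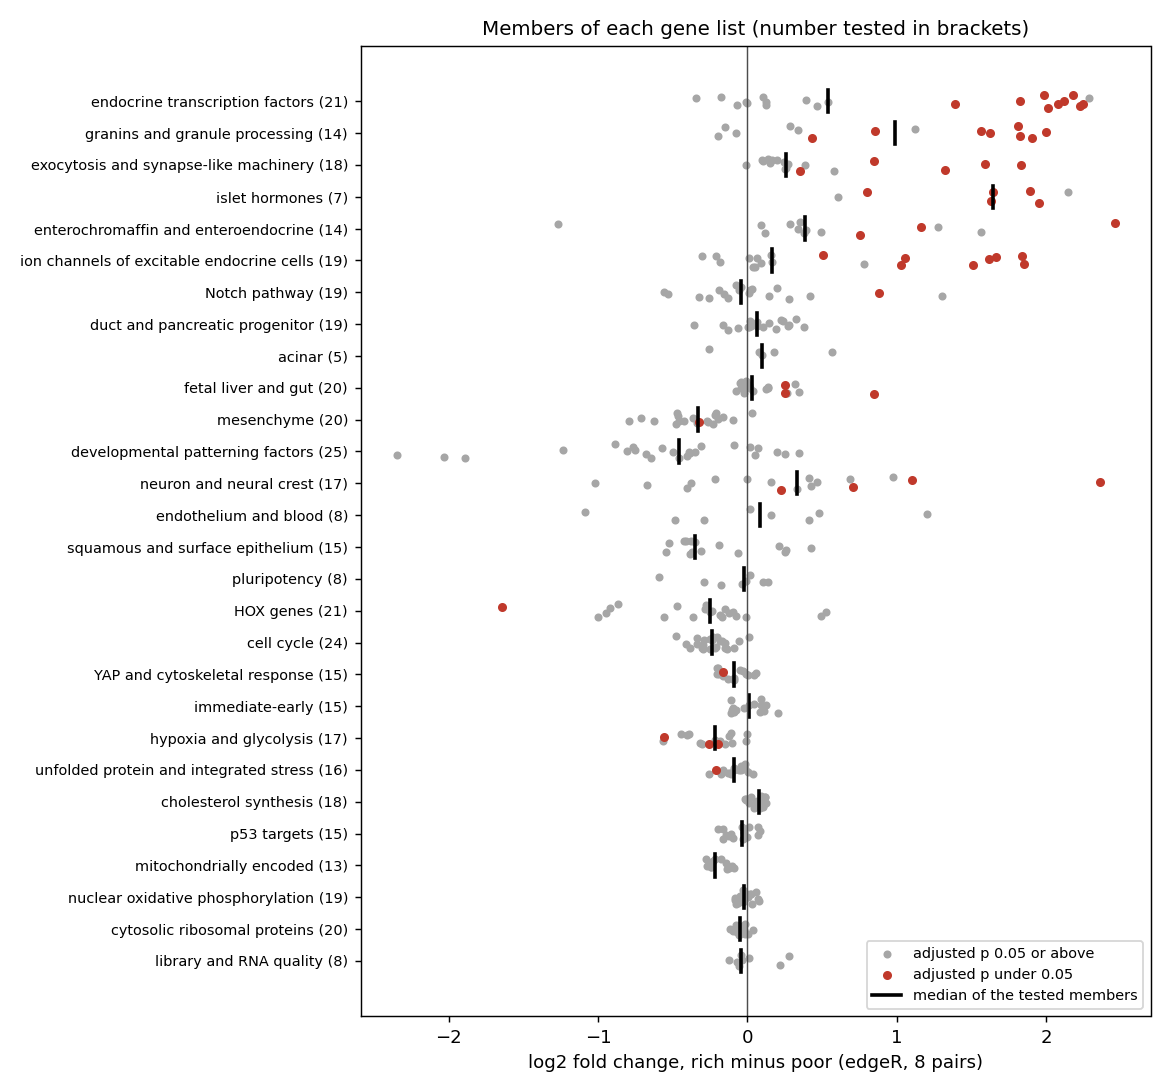
Each point is a tested member of a gene list, placed by its log2 fold change, rich minus poor; red points passed an adjusted p of 0.05 and black bars are list medians. The endocrine lists at the top hold most of the red points on the right, the duct list sits near 0 and the mesenchyme, cell cycle and glycolysis lists sit slightly to the left.

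Progenitor and duct genes overlapped between the classes. Of 19 tested members of that list 0 were called by edgeR (median 0.06), with 7 at an unadjusted p under 0.05. DESeq2 called 4 higher and 1 lower, edgeR without the filter on low counts 6 higher and 2 lower, and edgeR without the rottlerin pair 3 higher. PDX1, the master factor of the pancreas, ran from 34.8 through 48.0 to 53.7 CPM in rich and from 22.7 through 35.2 to 48.3 CPM in poor libraries (0.38 ± 0.13, adjusted p = 0.161), with wide overlap. SOX9, a progenitor and duct factor, had medians of 57.7 and 50.1 CPM in rich and poor libraries (0.23 ± 0.15, adjusted p = 0.491) and was higher in 3 of 8 pairs. KRT19, a duct keratin, had medians of 447 and 454 CPM in rich and poor libraries (0.02 ± 0.05, adjusted p = 0.894).

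In the Notch list 1 of 19 tested members was called, the ligand DLL4 (0.88 ± 0.22, adjusted p = 0.0426), beside 1.81% of all tested genes called higher. DLL4 kept its call without the rottlerin pair and lost it without any other pair. Over the 20 alternative settings 0 to 1 Notch members were called higher and 0 to 3 lower. HES1, the Notch target that holds back endocrine fate, changed by -0.04 ± 0.05 (adjusted p = 0.740), with medians of 77.6 CPM in rich and 79.4 CPM in poor libraries. In the list of fetal liver and gut genes 3 of 20 were called higher (median 0.03), CDX2 (0.25 ± 0.05), APOA1 (0.25 ± 0.06) and APOA4 (0.84 ± 0.19). The count was 0 without the epirizole pair, without the moxifloxacin pair or with the GC offset, and at most 5 in any alternative setting. AFP, alpha-fetoprotein of fetal liver, ran from 2570 through 4732 to 5416 CPM in rich and from 3121 through 4719 to 6982 CPM in poor libraries (0.00 ± 0.19, adjusted p = 0.999). Acinar genes were mostly under the testing level, and 0 of 5 tested were called by edgeR or DESeq2 or had an unadjusted p under 0.05 (median 0.10), against 1 called higher without the filter.

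Mesenchymal genes mostly had values on the poor side, and how many passed the test depended on the fit. Of 20 members 19 had a fold change below 0 (median -0.33) and 1 was called lower: PDGFRB, a growth factor receptor of pericytes and fibroblasts, which ran from 10.9 through 14.8 to 23.8 CPM in rich and from 12.4 through 18.8 to 27.9 CPM in poor libraries (-0.33 ± 0.07, adjusted p = 0.0246). The classes overlapped, but PDGFRB was lower in rich in 8 of 8 pairs; it was not called without the epirizole or the moxifloxacin pair, whereas DESeq2 called 6 members lower and edgeR without a filter on low counts 18. COL3A1, a fibrillar collagen, had medians of 728 CPM in rich and 946 CPM in poor libraries (-0.34 ± 0.14, adjusted p = 0.246). The summed level of the 20 members was 2874 to 4468 CPM in rich libraries and 3638 to 5511 CPM in poor libraries, lower in rich in 7 of 8 pairs. Over all tested genes 49.95% had a fold change above 0 and 1.25% were called lower. Members of a list can vary together, so such counts are not counts of independent genes. The part of mesenchymal RNA in the endocrine difference was not tested.

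Among the largest falls were genes of connective tissue, smooth muscle and Wnt or BMP signalling. MYCT1 ran from 0.274 through 0.770 to 3.45 CPM in rich and from 0.758 through 2.23 to 6.26 CPM in poor libraries (-1.31 ± 0.17, adjusted p = 0.000914). NGFR, a nerve growth factor receptor, ran from 0.139 through 0.618 to 1.39 CPM in rich and from 0.620 through 1.51 to 2.31 CPM in poor libraries (-1.16 ± 0.24, adjusted p = 0.0192). LAMP3, a lysosomal membrane protein, ran from 0.904 through 1.57 to 2.42 CPM in rich and from 2.21 through 3.02 to 3.62 CPM in poor libraries (-0.89 ± 0.17, adjusted p = 0.0108).
All 3 overlapped between classes. The naming rule took only genes with the same direction in 8 of 8 pairs, so that agreement was set by the rule. Also named were PTX3, a secreted pentraxin (-1.03 ± 0.18), the Wnt modulators SFRP2 (-0.99 ± 0.21) and RSPO1 (-0.83 ± 0.17), and the BMP-binding BMPER (-0.78 ± 0.12). The smooth muscle long non-coding RNA CARMN (-0.81 ± 0.13) and ZEB1, a repressor of epithelial genes (-0.90 ± 0.16), were named too. RNF183, an E3 ubiquitin ligase (-0.99 ± 0.21), CAMK4, a calmodulin-dependent kinase (-0.94 ± 0.21), CYBRD1, a ferric reductase (-0.87 ± 0.18), VIT, a matrix protein (-0.81 ± 0.16), SLC1A6, a glutamate transporter (-0.77 ± 0.17), and LAMA2, a laminin chain (-0.77 ± 0.20), completed the 15 largest falls by the naming rule. NGFR, SFRP2, RSPO1, CAMK4, SLC1A6, LAMA2, CYBRD1 and VIT were not called without the epirizole pair. Over the 20 alternative settings, of which 3 repeat the main fit, LAMA2 was called in 7, CAMK4 in 12 and SLC1A6 in 13. RNF183 was not called without the moxifloxacin pair or the Ly-294002 pair. In a fit without the treatment block LAMP3 and VIT were the members of these 15 that stayed called.

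Patterning factors mostly had negative values. ZIC1, a zinc-finger factor of neural and mesodermal patterning, ran from 0.0340 through 0.326 to 1.50 CPM in rich and from 0.598 through 1.56 to 3.68 CPM in poor libraries. It was lower in rich in 8 of 8 pairs, by 0.20 to 3.81 on the log2 scale, yet its fold change of -1.89 ± 0.46 just missed the threshold (edgeR adjusted p = 0.0525). Of 25 tested patterning factors 0 were called by edgeR (median -0.46), with 6 at an unadjusted p under 0.05. DESeq2 called 1 higher and 2 lower, edgeR without the filter 1 higher and 8 lower, and edgeR with the replicate block 1 lower and without the Ly-294002 pair 2 lower. ZIC1 itself was called in 8 of the 20 alternative settings. Among 21 tested HOX genes 1 was called lower, HOXD4 (-1.64 ± 0.35, adjusted p = 0.0212), beside 1.25% of all tested genes (list median -0.25). HOXD4 was not called without the epirizole, the Ly-294002 or the moxifloxacin pair. At most 4 HOX genes were called lower in any alternative setting.

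Most abundant genes that were called were lower in the rich libraries, glucose transporters among them. SLC2A3 (chr12:7919230-7936275), a glucose transporter chosen here after its value was seen, ran from 1220 through 1427 to 2265 CPM in rich and from 1609 through 2201 to 2973 CPM in poor libraries (-0.52 ± 0.05, adjusted p = 6.05e-05). SLC2A1, the transporter of most proliferating cells, ran from 268 through 383 to 563 CPM in rich and from 454 through 532 to 871 CPM in poor libraries (-0.56 ± 0.07, adjusted p = 0.00241). COL5A2 and YAP1 were also picked after their values were seen: the collagen COL5A2 ran from 166 through 213 to 244 CPM in rich and from 238 through 274 to 306 CPM in poor libraries (-0.38 ± 0.05, adjusted p = 0.000514).
YAP1, the effector of the Hippo pathway, had medians of 430 CPM in rich and 522 CPM in poor libraries (-0.26 ± 0.04, adjusted p = 0.00310). All 4 overlapped and were lower in rich in 8 of 8 pairs, and SLC2A3, SLC2A1 and YAP1 were not called in a fit without the treatment block.

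Of 17 tested genes of hypoxia and glycolysis 17 had a fold change below 0 (median -0.22), whereas 49.95% of all tested genes had one above 0. In this list 3 were called lower, beside 1.25% of all tested genes: SLC2A1, GAPDH (-0.19 ± 0.04, adjusted p = 0.0169) and the glycolytic enolase ENO1 (-0.26 ± 0.06, adjusted p = 0.0442). Without the epirizole, the moxifloxacin or the Ly-294002 pair 1 was called, and DESeq2 called 8 and edgeR without the filter 11. The hexokinase HK2 (-0.57 ± 0.17, adjusted p = 0.133) and LDHA (-0.30 ± 0.10, adjusted p = 0.152) were not called. Of 15 genes that respond to YAP and the cytoskeleton 1 was called lower, CCN1 (-0.17 ± 0.04, adjusted p = 0.0285), and not without the epirizole, the moxifloxacin or the Ly-294002 pair. At most 6 of the 15 were called lower in any alternative setting.

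**Figure D4:**
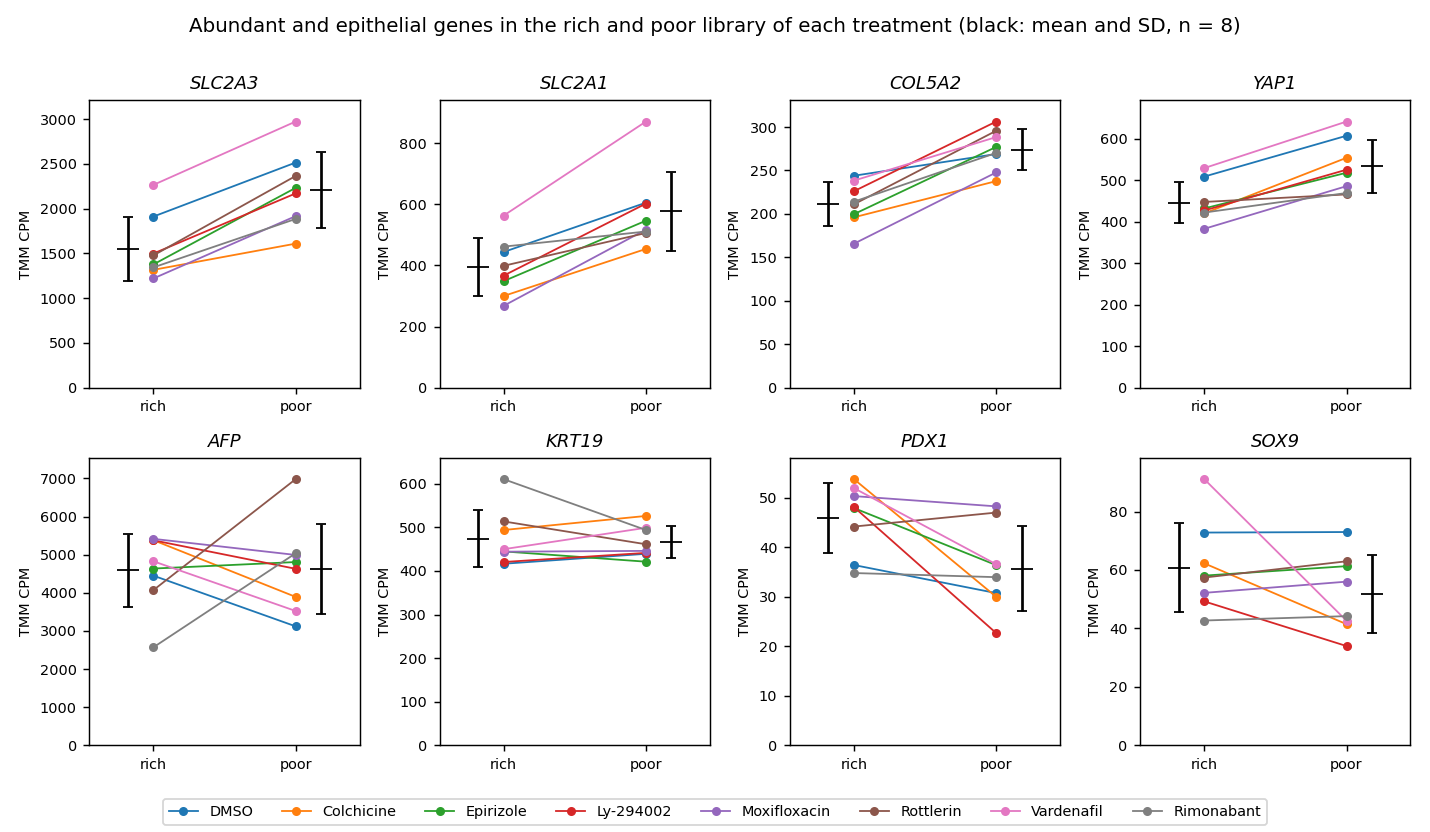
TMM-normalised CPM of 8 abundant or epithelial genes, one panel each, rich library of each treatment on the left and its poor library on the right; black marks are the mean and SD of 8 libraries. SLC2A3, SLC2A1, COL5A2 and YAP1 are lower in the rich library of every treatment, whereas AFP, KRT19 and SOX9 lines run both ways.

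Cell cycle genes were not called (0 of 24 tested by edgeR, with 13 at an unadjusted p under 0.05), although 23 had fold changes below 0 (median -0.23). Of all tested genes 49.95% had a fold change above 0. DESeq2 called 3 lower, the GC offset 5 and the fit without a filter on low counts 11. MKI67, a marker of cycling cells, had medians of 98.2 CPM in rich and 124 CPM in poor libraries (-0.30 ± 0.18, adjusted p = 0.435) and was higher in 3 of 8 pairs. Of 16 genes of the unfolded protein response 1 was called lower, HERPUD1 (-0.21 ± 0.05, adjusted p = 0.0490). That call was lost in 14 of the 20 alternative settings, and 3 of the settings that kept it repeat the main fit. The 13 mitochondrially encoded genes had 13 values below 0 (median -0.22) with 0 called by edgeR, 2 at an unadjusted p under 0.05, 1 called lower by DESeq2 and 12 without the filter, and summed to 13535 to 26932 CPM in rich and 20408 to 28787 CPM in poor libraries. Cholesterol synthesis, p53 targets, immediate-early genes, nuclear oxidative phosphorylation, ribosomal proteins, endothelium, squamous epithelium, pluripotency and RNA quality genes had 0 members called by edgeR in the main fit. At an unadjusted p under 0.05 these lists held 0 members (oxidative phosphorylation) to 5 (cholesterol synthesis), and DESeq2 called 1 gene of the pluripotency list lower and 0 of the others. Without the filter edgeR called 1 higher and 5 lower of the squamous list. In the alternative settings the pluripotency list had up to 1 called higher and 2 lower. The rest, squamous apart, had at most 1 in each direction.

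The size of the difference varied between treatments, in description only because each treatment has 1 pair. The median log2 difference of the 21 endocrine transcription factors was 0.33 in DMSO, 0.47 in Ly-294002, 0.66 in vardenafil, 0.70 in colchicine, 0.76 in rimonabant, 0.99 in moxifloxacin, 1.30 in epirizole and 1.34 in rottlerin. Hormones were widest in moxifloxacin (1.88) and narrowest in rimonabant (0.56). The granule, exocytosis, hormone, enteroendocrine, ion channel and neuronal lists were above 0 in 8 of 8 treatments, and the patterning list was below 0 in 8 of 8. Mesenchyme was below 0 in 6 of 8 treatments, cell cycle in 5 of 8 (-0.85 in colchicine, 0.26 in rottlerin) and hypoxia and glycolysis in 7 of 8. NEUROD1 differed by 0.46 in rimonabant and 2.41 in vardenafil, its extremes, and was higher in the rich library of every treatment, DMSO included.

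**Figure D5:**
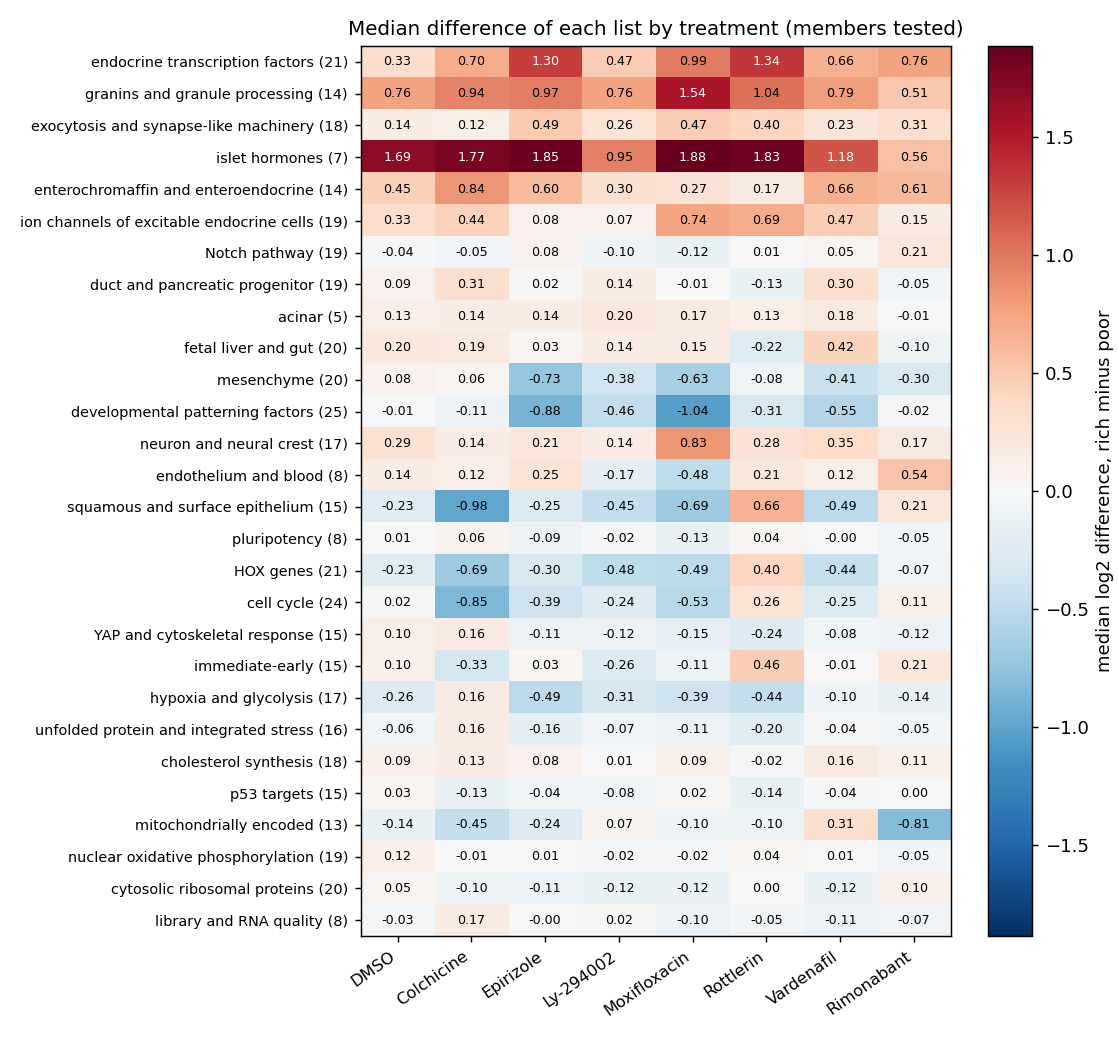
Median log2 difference, rich minus poor, of the tested members of each list (rows, number tested in brackets) in each treatment (columns); red is higher in the rich library and blue lower. The 6 endocrine rows and the neuronal row are red in all 8 columns, from 0.07 to 1.88, and the patterning row is blue in all 8, down to -1.04; rows such as cell cycle and squamous epithelium change colour between columns.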

How the data were processed

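Per the labels' protocols, total RNA of 16 whole cultures was cleared of ribosomal RNA (KAPA RiboErase) and read paired-end. The protocols name FastQC 0.11.8, Trimmomatic 0.38, STAR 2.7.1a, Picard 2.20.4, StringTie 2.0.4 and featureCounts 1.6.0 or HTSeq, and the submitters' processing notes name HTSeq and GRCh38. Annotation release, strand setting and multimapper handling are not given in the sources used here, so antisense, overlapping and near-identical genes are uncertain. The authors deposited unnormalised gene counts, with 62754 genes for the 16 libraries, of which 20393 have no symbol. Totals were 23294377 to 30701868 reads, and a floor of 3 reads was 0.0977 to 0.129 CPM, a limit of counting alone, because PCR copies of a molecule cannot be told from other reads.

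CHGA and library totals are plain CPM; other levels are CPM after TMM scaling (R 4.3.3, edgeR 4.0.16). Genes kept by filterByExpr on the 8 treatments (24515, 99.92% of reads) were fitted with treatment as a block plus the class (7 residual degrees of freedom, common biological coefficient of variation 0.134), by two-sided robust quasi-likelihood F tests, Benjamini-Hochberg adjusted over all genes at 0.05. CHGA was left out of counts. Fold changes are log2, rich minus poor, ± SE. The fit was tested on simulated data. GC content, positions and gene types are from GENCODE 29 (GRCh38); 95.3% of tested genes had a GC value. Alternatives were DESeq2 1.42.0, its size factors, other filters, no block, a replicate block, CHGA as a continuous term, other class genes, each pair left out and a GC offset (lowess span 0.3).

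Named genes were the 15 largest rises and 15 largest falls among genes with a symbol, called, at a mean of at least 1 CPM and in the same direction in 8 pairs, up to 4 called members per list with the smallest p, and a panel of 21 islet genes. Other list members given as examples, and abundant genes, were chosen after their values were seen. The classes and lists were chosen with earlier results of these data known. Values of some named genes are not reported here.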

Additional observations from a re-analysis of the deposited data

Results flagged for a closer look

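Of 160 groups of 8 libraries examined, 14 had an end value far from the others by Dixon's criterion; chance gives about 1 in 20, and no cause was tested. All levels are CPM after TMM scaling. The poor DMSO library 2 stood above the other poor libraries in NKX6-1 (3.61, the next being 1.60), PAX6 (4.83 against 2.41) and GCG (4.22 against 2.56); it was also the poor library with the most CHGA. The poor colchicine library 2 stood highest in CPLX2 (0.792) and DDC (13.3). Rottlerin libraries stood highest in APOA4 in both classes, at 32.2 in the rich library 1 and 18.4 in the poor library 2, and the poor one also in DLL4 (1.63). The vardenafil libraries stood highest in MYCT1 among the rich (3.45, library 2) and in BMPER (26.5) and SLC2A1 (871) among the poor (library 1). NKX2-2 was highest in the rich moxifloxacin library 2 (6.70), CCN1 in the rich DMSO library 1 (342), and AFP was lowest in the rich rimonabant library 2 (2570, the next being 4071).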

How the results depend on the processing

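Setting the classes by NEUROD1, INSM1 or CHGB gave the same libraries and so the identical fit, which tests nothing. All 750 calls kept their sign under every other alternative that could give them a value, except 1 gene each without the colchicine or the Ly-294002 pair. The numbers called were 1195 with DESeq2 (565 lower), 1939 without a filter on low counts (836 higher, 1103 lower), 204 without the treatment block (187 higher, 17 lower) and 264 higher with the GC offset. Leaving out 1 pair gave 245 to 943 calls, 178 to 512 higher and 67 to 431 lower. With a replicate block 572 were called, and with the replicate block and the GC offset 498 (220 higher). Numbers did not pair the libraries: deviations of the same number correlated at -0.283 to 0.226 over 28 pairs of treatments. Leaving out 1 pair, the rich minus poor difference was -1.94 to -0.917 in library total in units of M reads (exact p = 0.0469 without the moxifloxacin pair, 0.109 with all), -168 to 48.1 genes with a read, and 0.0833 to 0.176 in GC slope (exact p = 0.0156 without the vardenafil pair). AFP, near 0 with all pairs, was -0.00412 with DESeq2's size factors, -0.00408 with DESeq2, -0.00930 without the filter, -0.0101 without the treatment block, -0.0325 with CHGA as a continuous term and -0.0768 to 0.137 without 1 pair. KRT19 was -0.0870 with the GC offset, alone or with the replicate block, and -0.0230 to 0.0418 without 1 pair. The causes were not tested. Precision is limited by 7 residual degrees of freedom and, for hormones and factors of a few CPM, by low read counts.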

Other observations

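Several genes outside the lists were higher in every rich library than in any poor one, some by a narrow gap; they were picked by their small p after the values were seen. ONECUT3, a homeobox factor, ran from 25.0 through a median of 44.5 to 52.8 CPM in rich libraries and from 10.1 through 21.4 to 25.0 CPM in poor libraries (log2 fold change 1.11 ± 0.10 SE, edgeR adjusted p = 0.000182). MGAM2, a maltase-glucoamylase relative, ran from 50.8 through 64.8 to 79.6 CPM in rich and from 27.9 through 34.8 to 50.2 CPM in poor libraries (0.82 ± 0.09, adjusted p = 0.000514). The long non-coding RNA MIAT had medians of 34.5 CPM in rich and 15.1 CPM in poor libraries (1.27 ± 0.12). None of these 3 overlapped between the classes, although the lowest rich and highest poor libraries of ONECUT3 lay together at 25.0 CPM. GAD2, which makes the transmitter GABA (1.21 ± 0.18), ATP2A3, a calcium pump of the endoplasmic reticulum (1.44 ± 0.13), and EDN3, an endothelin (0.97 ± 0.14), were higher in rich in 8 of 8 pairs.

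Among the abundant genes, the falls also included the matrix protein FN1, with medians of 5561 CPM in rich and 6114 CPM in poor libraries (-0.16 ± 0.04, adjusted p = 0.0242), and at lower levels the hemidesmosome collagen COL17A1 (-0.56 ± 0.07) and the sulfatase SULF1 (-0.71 ± 0.10). Clusterin, CLU (0.31 ± 0.04), and the imprinted non-coding RNA KCNQ1OT1 (0.23 ± 0.04, medians 1196 CPM in rich and 1007 CPM in poor libraries) were higher in rich.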
